A study of Mus musculus with 11 samples.

Results

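The cells compared here were the reporter-positive and reporter-negative cells sorted from the duodenal epithelium of Neurod1-cre-eYFP mice. The comparison was defined by the labels of the samples and used no measured value, and it took 6 of the 11 RNA-seq libraries of the series, 3 NeuroD1 positive and 3 NeuroD1 negative. The epithelium was digested to single cells and sorted by flow cytometry, and each negative sample held about as many reporter-negative cells as the positive sample held positive cells, per the labels' protocols. All mice were kept on standard chow, and neither age nor sex of the mice is given in the sources used here. The other 5 libraries came from GluVenus mice, 3 with Glu positive and 2 with Glu negative cells of the duodenum. They entered the fit to share the estimate of the spread and served in a test of the difference between the strains. In the Neurod1-cre-eYFP strain a Cre recombinase under Neurod1 control switches on the yellow fluorescent reporter, and in GluVenus mice the Venus reporter marks cells that use the proglucagon gene, as background. A Cre-driven reporter stays on after recombination, so it marks cells with past as well as present use of the driver.

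Enteroendocrine cells are the scattered hormone-secreting cells of the gut epithelium. They arise from the crypt stem cells under a cascade of basic helix-loop-helix transcription factors, in which Neurog3 precedes Neurod1. They sense nutrients, bile acids and irritants at the lumen and release peptide hormones or serotonin from granules into the tissue below. In the duodenum they are known for cholecystokinin, secretin and serotonin, and the cells around them are chiefly enterocytes, goblet, Paneth and tuft cells, with lymphocytes lying between the epithelial cells.

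The positive cells carried the markers of the label. Values per library are CPM, scaled by TMM, always in the order of NeuroD1_positive_6360, NeuroD1_positive_6361 and NeuroD1_positive_6362 or of the NeuroD1_negative libraries with these numbers. Neurod1 stood at 477, 634 and 606 CPM in the positive and 43, 51 and 59.6 in the negative libraries, a log2 fold change of 3.49 ± 0.41 (SE). Cck, which encodes cholecystokinin, stood at 47312, 86963 and 39368 against 689, 927 and 857 CPM, and Scg2 and Chgb, which encode granule proteins, had log2 fold changes of 5.38 ± 0.34 and 4.55 ± 0.44. The groups did not overlap for any of the 4 markers, with adjusted p from 4.06e-08 to 1.71e-05 in edgeR's quasi-likelihood test. The Neurod1 gene overlaps an exon of Cerkl, and without knowledge of the strand in counting, reads from overlapping genes cannot be told apart. The same holds for other genes named below, among them Tpbg, Amigo2, Erbb2, Arg2, Ckmt1, Muc4 and Ina, whose exons overlap other genes. Of the hormone and transmitter genes 16 of 26 tested were higher and 1 lower, of the granule and exocytosis genes 37 of 51 were higher, and of the endocrine transcription factors 24 of 39 were higher. The 3 lists are described no further.

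The 6 libraries held 1528145 to 4329182 counts once mt-Rnr1 and mt-Rnr2, the ribosomal RNA genes of the mitochondrion, were left out. These 2 genes took 27.5% to 33.9% of all counts in 5 of the 6 libraries and are listed at 0 in NeuroD1_negative_6360 and in the 5 GluVenus libraries, so that NeuroD1_negative_6360 stood apart before scaling. The gene Lars2 took 4.22% to 5.97% of the remaining counts of the 6 libraries. On the log2 CPM scale the correlation across genes was 0.879 to 0.91 between libraries of the same NeuroD1 group and 0.728 to 0.783 between positive and negative libraries. Whether a number stands for a mouse of its own is not stated, and the tests then measure how far libraries spread within their groups. That spread was estimated over all 11 libraries, so the SE and adjusted p below also hold the spread of the GluVenus libraries.

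Of 14629 genes tested, 903 were higher in the NeuroD1 positive cells, 6.17% of the genes tested, and 1132 were lower, 7.74%, with 0.05 as the threshold of the Benjamini-Hochberg adjusted p. Over all genes tested the median log2 fold change was -0.01, and values per list below are to be read against that median and these shares. Leaving out NeuroD1_negative_6360 left 502 genes higher and 795 lower. There were 578 higher genes without NeuroD1_negative_6361 and 582 without NeuroD1_negative_6362, and 724 lower genes without NeuroD1_positive_6361. In bulk RNA, fewer cells of a type and less RNA per cell cannot be told apart.

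**Figure D1:**
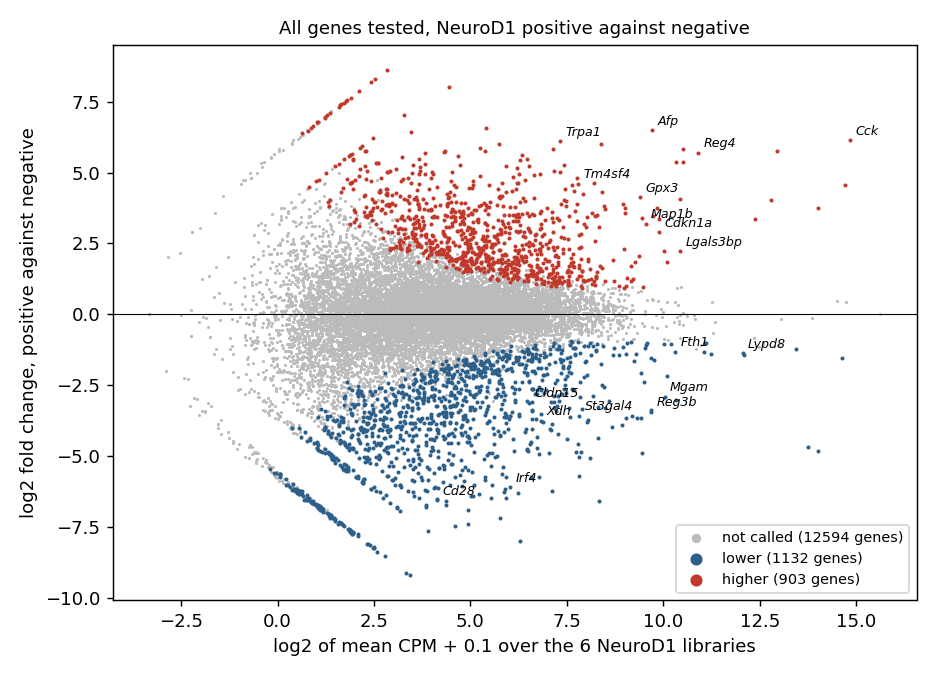
Each point is 1 of the genes tested, with the log2 of its mean CPM (plus 0.1) over the 6 NeuroD1 libraries on the horizontal axis and its log2 fold change, positive against negative, on the vertical axis. Red points are the 903 genes called higher and blue points the 1132 called lower, and Reg4, Afp and Trpa1 lie near the upper edge at high and middle levels.

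Outside the lists of hormones, granule genes, transcription factors and the 31 themes described below, 12 genes that rose were named for the size of their change. They were drawn from called genes with at least 20 CPM whose groups do not overlap, so the lack of overlap in them follows from the choice. The share of all genes tested without overlap is not given, so lack of overlap is a description only, here and below. The highest of them by level per exon length was Reg4 (chr3:98222156-98236748 in GRCm38), a secreted lectin of the regenerating-islet family. It stood at 3984, 4603 and 2726 CPM in the positive and 68.9, 88 and 62.2 in the negative libraries. The lowest positive library lay far above the highest negative one, and the log2 fold change was 5.69 ± 0.45 (adjusted p 3.05e-07). Adgrg4 (chrX:56870163-57001558), an adhesion G protein-coupled receptor without an established ligand, stood at 2191, 4243 and 2207 against 44, 54.6 and 53.3 CPM. NeuroD1_positive_6361 was the highest and the groups did not overlap, with a log2 fold change of 5.83 ± 0.44 (adjusted p 2.41e-07).

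Afp (chr5:90490737-90508907), the fetal plasma protein alpha-fetoprotein, stood at 1949, 2126 and 923 CPM in the positive libraries and 18.1, 20.04 and 17.2 in the negative ones. The change was 6.50 ± 0.66 (adjusted p 3.43e-06), with NeuroD1_positive_6362 the lowest of its group. Pzp (chr6:128483567-128526720), a protease inhibitor of the alpha-2-macroglobulin family, was even across positive libraries at 631, 742 and 598 CPM, against 9.36, 10.3 and 11. Its log2 fold change was 6.01 ± 0.45 (adjusted p 2.38e-07). Serpina1e, an alpha-1-antitrypsin gene, stood at 61.4, 173 and 79.7 against 2.13, 1.21 and 1.05 CPM, a change of 6.02 ± 1.00, and Serpinf2, which encodes alpha-2-antiplasmin, at 36.5, 56.4 and 22.4 against 0.213, 1.21 and 1.05 CPM, a change of 5.71 ± 1.12. Serpina1c had 346 counts over the positive libraries and 1 over the negative ones, a ratio of 333 at equal library size with a 95% counting interval of 59.4 to 13186. The alpha-1-antitrypsin genes are near-identical copies, so the split of counts between Serpina1c and Serpina1e is uncertain.

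The irritant-gated cation channel gene Trpa1 (chr1:14872648-14918862) stood at 469, 294 and 192 CPM in the positive and 5.11, 3.04 and 5.23 in the negative libraries. NeuroD1_positive_6360 was the highest, no negative library came near the lowest positive one, and the change was 6.11 ± 0.60 (adjusted p 2.48e-06). A second channel gene of the TRP superfamily, Trpc7, stood at 41.4, 19.7 and 21.7 against 0.425, 0.607 and 0.523 CPM, a change of 5.69 ± 0.94. Cyp2j5, a cytochrome P450 that epoxidises arachidonic acid, stood at 92.5, 92.6 and 66.8 against 0.851, 0 and 1.57 CPM, a change of 6.58 ± 0.73. Agr3, of the protein disulfide isomerase family, reached 57.8, 114 and 51.2 CPM against 1.70, 1.21 and 0.523, and the LIM homeobox factor gene Lhx1 62.7, 21.9 and 34.4 against 0.213, 1.82 and 0.523. Agr3 changed by 5.85 ± 0.62 and Lhx1 by 5.75 ± 0.93. Adjusted p for these 5 genes and the 3 serpin genes ran from 2.48e-06 for Trpa1 to 0.00187 for Serpinf2, and all 12 calls held with any 1 of the 6 libraries left out.

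The upstream regions of these 12 genes were read because basic helix-loop-helix factors such as NeuroD1 bind E-boxes, the letters CANNTG, which read the same on the other strand. The RefSeq promoter table (GRCm38.p6) held 11 of the 12 genes. An E-box was found in the 250 bases before the RefSeq start of 6 of these 11, against 66% of the 27025 promoters of that length, and CAGATG on either strand was found in 0 of the 11 and in 14.5% of all. CAGATG is one form of CANNTG, so the 2 searches overlap. The 4 with the largest change that hold an E-box are shown 5′ to 3′ on the gene's strand with CANNTG in capitals. A match is a description of these letters and not a bound site.
Serpina1c, chr12:103904951-103905200, minus strand: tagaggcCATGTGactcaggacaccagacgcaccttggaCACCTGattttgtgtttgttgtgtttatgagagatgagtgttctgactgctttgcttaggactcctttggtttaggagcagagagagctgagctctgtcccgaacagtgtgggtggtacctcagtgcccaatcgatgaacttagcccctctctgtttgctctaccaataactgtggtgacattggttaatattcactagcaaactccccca
Afp, chr5:90490464-90490713, plus strand: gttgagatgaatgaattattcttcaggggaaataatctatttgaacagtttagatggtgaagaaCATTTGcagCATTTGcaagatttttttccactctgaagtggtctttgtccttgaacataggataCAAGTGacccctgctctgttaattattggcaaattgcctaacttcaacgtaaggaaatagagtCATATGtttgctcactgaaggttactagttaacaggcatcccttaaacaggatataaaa
Pzp, chr6:128526721-128526970, minus strand: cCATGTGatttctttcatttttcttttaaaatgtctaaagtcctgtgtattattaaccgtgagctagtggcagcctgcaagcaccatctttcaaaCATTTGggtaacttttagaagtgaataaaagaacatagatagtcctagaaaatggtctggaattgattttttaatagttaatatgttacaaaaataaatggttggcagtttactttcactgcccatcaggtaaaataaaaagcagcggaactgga
Agr3, chr12:35925371-35925620, plus strand: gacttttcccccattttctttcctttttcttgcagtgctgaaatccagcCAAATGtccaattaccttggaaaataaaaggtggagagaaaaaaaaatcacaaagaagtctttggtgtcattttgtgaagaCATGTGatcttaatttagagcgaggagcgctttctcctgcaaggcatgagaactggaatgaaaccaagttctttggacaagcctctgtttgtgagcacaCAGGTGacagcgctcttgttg

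By difference in level, 10 unlisted genes led among those that met the same conditions, no overlap of the groups included. Of these, Reg4, Adgrg4 and Afp are given above. The glycoprotein gene Lgals3bp stood at 2042, 2307 and 2489.8 CPM against 510.3, 520.4 and 440.0, a change of 2.22 ± 0.29. Cdkn1a, which encodes the cell cycle inhibitor p21, stood at 1328, 2082 and 1574 against 210.0, 138 and 326, a change of 2.89 ± 0.35. The negative libraries spread more for Cdkn1a than for Lgals3bp, and neither gene had overlapping groups. Pclo, a scaffold of the presynaptic release zone, and Aplp1, a relative of the amyloid precursor protein, changed by 3.57 ± 0.32 and 3.91 ± 0.39. The membrane mucin gene Muc4, the endothelin-converting enzyme gene Ece1 and the lysosomal sulfatase gene Ids changed by 2.06 ± 0.31, 1.85 ± 0.36 and 2.31 ± 0.40. The highest adjusted p of these 7 genes was 0.00194, for Ece1. Divided by exon length, the positive group means in CPM per kilobase fell in the order Reg4 (3694), Lgals3bp (801), Afp (495), Cdkn1a (468), Aplp1 (309) and Adgrg4 (293).

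**Figure D2:**
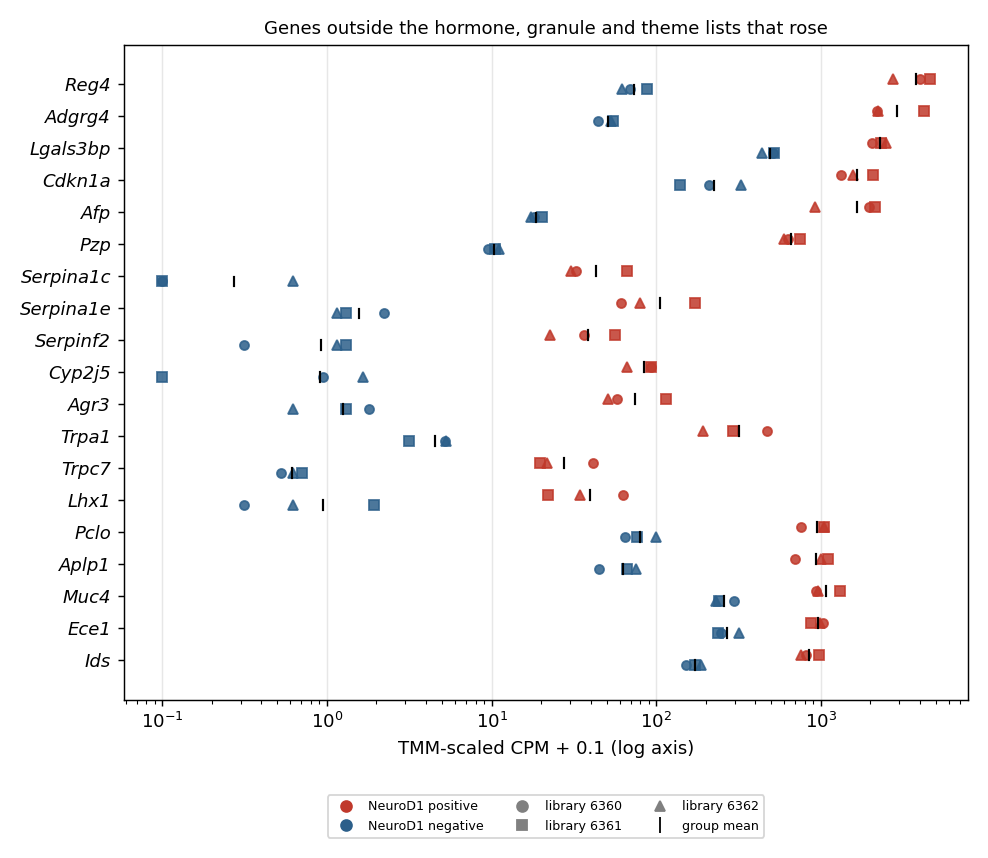
TMM-scaled CPM plus 0.1 on a log axis for 19 genes outside the lists, with 1 marker per library (red positive, blue negative, shape by library number) and a bar at each group mean. In every gene shown the 3 positive libraries lie to the right of the 3 negative ones, as the choice of these genes required.

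Among the 31 theme lists the share of members called higher was largest for imprinted genes (30% of 20 tested), tetraspanins and other surface antigens (23.8% of 42) and RGS proteins (23.5% of 17). The share called lower was largest for integrins and basement membrane receptors (26.5% of 34), retinoid genes (25% of 24) and the citric acid cycle (20% of 30). The lists are of different sizes and were described by counts, without a test of the list. Lists with calls in a single direction in edgeR included the regulators of MAP kinase and Ras (11 of 51 higher), neuronal cytoskeleton genes (9 of 42) and neural and immunoglobulin-fold adhesion proteins (8 of 35). At an unadjusted p under 0.05, none of the first list and 1 of each of the other 2 were lower, and DESeq2 and limma voom called 0 of them lower. Of the other lists with no lower call, splicing regulators had 2, imprinted genes 1, cadherins 1, lysosome genes 0, cholesterol synthesis 4 and fatty acid synthesis 2 lower genes at that unadjusted p. In DESeq2, 1 cadherin gene and 2 of fatty acid synthesis were called lower and 0 of the other 4 lists, and limma voom called 0 in all 6.

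**Figure D3:**
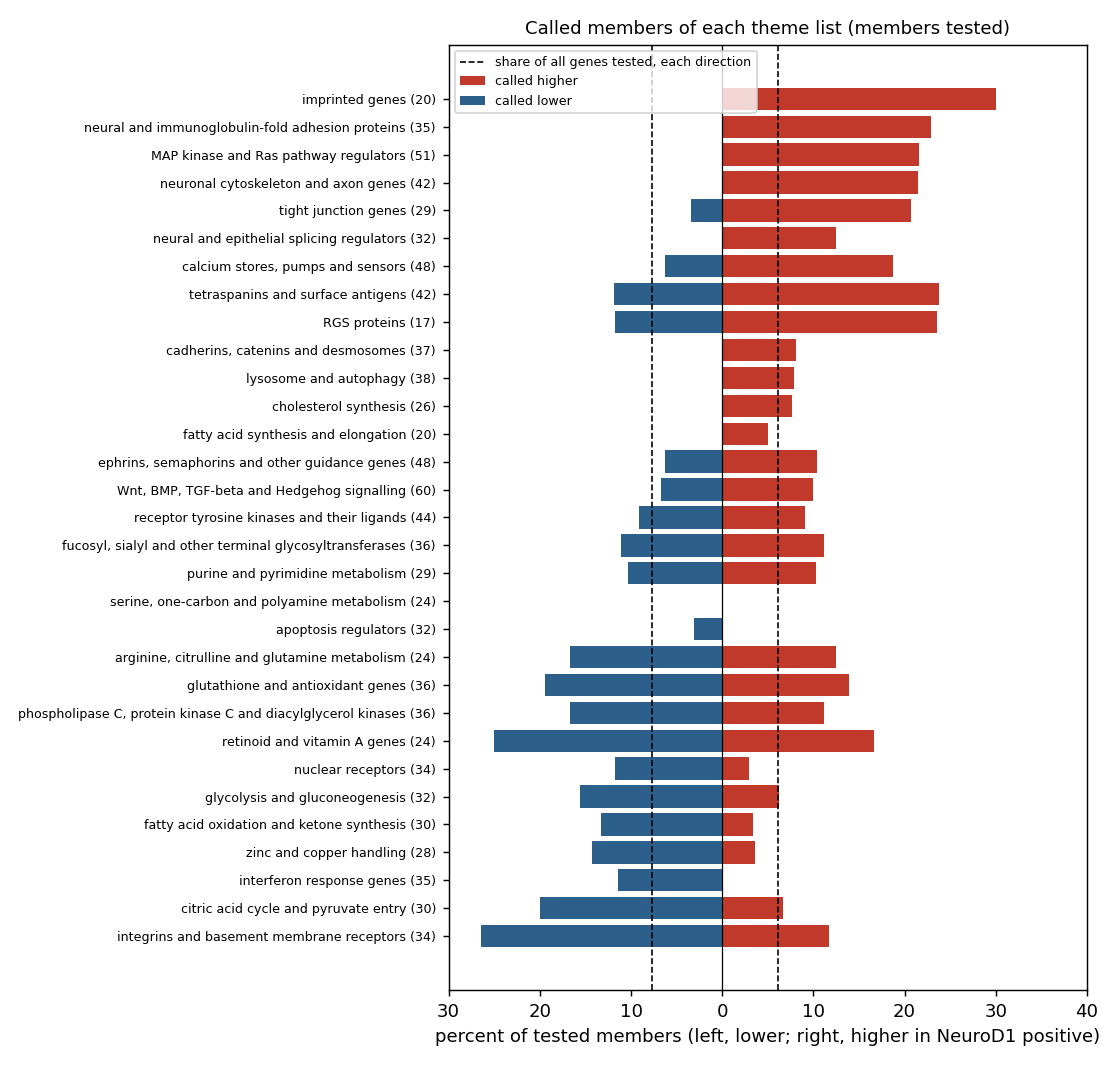
Bars give the percent of tested members called higher (red, to the right) and lower (blue, to the left) in NeuroD1 positive cells for each theme list, with the number tested in brackets. Dashed lines mark the shares of all genes tested, 6.17% higher and 7.74% lower, and imprinted genes reach farthest to the right.

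Claudins form the seal between neighbouring epithelial cells and set which ions pass. Cldn4, a sealing claudin, stood at 166, 113 and 134 CPM in the positive and 6.59, 7.29 and 5.23 in the negative libraries. Its groups lay far apart, with a log2 fold change of 4.42 ± 0.70 (adjusted p 0.000262). Cldn6 stood at 49.4, 51.9 and 25.1 against 1.70, 2.43 and 4.18 CPM, a change of 3.96 ± 0.81, and Cldn1 changed by 3.79 ± 0.87. The pore-forming claudin gene Cldn15 moved the other way, from 178, 172 and 143 CPM in the negative to 27.1, 12.5 and 16.8 in the positive libraries, and fell by 3.13 ± 0.40 (adjusted p 3.56e-05). Of 29 tight junction genes tested, 6 rose, 1 fell and 22 did not pass, with a median of -0.08.

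Of 37 cadherin, catenin and desmosome genes 3 rose and none fell in edgeR, while DESeq2 called 1 lower. The median was 0.06 and turned to -0.08 with scaling by library totals. Ppl, the desmosomal plakin periplakin, stood at 83.2, 99.8 and 75.6 against 13.6, 12.8 and 12.5 CPM, a change of 2.73 ± 0.40 (adjusted p 0.000133). The atypical cadherin gene Celsr3 changed by 2.23 ± 0.51, and Clstn2 changed by 2.26 ± 0.73, a call lost without any 1 of the 6 NeuroD1 libraries. The other 34 did not pass.

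Neural and immunoglobulin-fold adhesion genes rose in 8 of 35 and fell in none, with a median of 0.46, and 4 to 7 rose with 1 library left out, the fewest without NeuroD1_positive_6362. The Wnt-modulating leucine-rich surface protein gene Tpbg stood at 215, 164 and 138 CPM against 3.83, 3.04 and 4.70. All positive libraries lay more than an order of magnitude above the negative ones, with a change of 5.46 ± 0.55 (adjusted p 3.18e-06). Amigo2, a leucine-rich adhesion gene, stood at 132, 112 and 104 against 4.89, 5.46 and 7.32 CPM, a change of 4.31 ± 0.52 (adjusted p 2.31e-05). The neurexin-family gene Cntnap2 was low, at 15.1, 9.40 and 14.4 against 1.28, 0.607 and 0.523 CPM, and its change of 3.84 ± 1.09 was lost without NeuroD1_positive_6360 or NeuroD1_positive_6362 or any 1 of the 3 negative libraries.

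Of 34 integrins and basement membrane receptors tested 4 rose and 9 fell, with a median of -0.66, and 2 to 3 rose with 1 library left out, the fewest without any 1 of the 3 positive libraries, NeuroD1_negative_6360 or NeuroD1_negative_6361. Bcam, a laminin receptor, stood at 180.2, 268 and 158 against 22.5, 26.1 and 25.6 CPM, a change of 3.03 ± 0.52 (adjusted p 0.000607). The heparan sulfate proteoglycan gene Sdc2 stood at 59.2, 78.8 and 73.1 against 14.5, 14 and 22.5 CPM, a change of 2.05 ± 0.46, and the collagen receptor gene Ddr1 changed by 1.87 ± 0.58, a call lost without any 1 of the 3 positive libraries or NeuroD1_negative_6360 or NeuroD1_negative_6361. The groups did not overlap for these 3 genes. The leukocyte integrin genes Itgax, Itgal and Itgam fell, with changes of -4.54 ± 0.70, -4.51 ± 0.66 and -4.41 ± 0.53. The summed CPM of 24 immune markers was 162 to 244 in the positive and 2297 to 4963 in the negative libraries, with all 23 tested members lower, and its part in the fall of the integrins was not tested.

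Of 42 tetraspanins and surface antigens 10 rose and 5 fell, with a median of 0.41, and 2 to 4 fell with 1 library left out, the fewest without NeuroD1_positive_6361. The 4-span membrane protein gene Tm4sf4 stood at 408, 538 and 324 CPM in the positive and 20.6, 15.8 and 15.2 in the negative libraries. The groups lay far apart, with a change of 4.61 ± 0.39 (adjusted p 6.57e-07). Cd59a, which encodes an inhibitor of the complement membrane attack complex, stood at 73.4, 90.8 and 77.5 against 5.11, 6.07 and 6.27 CPM, a change of 3.80 ± 0.85 (adjusted p 0.00515). Cd177, a GPI-anchored surface antigen best known from neutrophils, stood at 161, 152 and 104 against 12.3, 12.1 and 14.1 CPM, a change of 3.43 ± 0.57 (adjusted p 0.000441). The negative libraries of both genes were close to each other, while Cd177 was lower in NeuroD1_positive_6362 than in the other positive libraries. The genes that fell most were Ly6d (-4.25 ± 0.77), Cd302 (-3.97 ± 1.05, lost without NeuroD1_positive_6360 or NeuroD1_positive_6361 or NeuroD1_negative_6362) and the T cell antigen gene Thy1 (-3.95 ± 0.80).

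Genes of fucosyl, sialyl and other glycosyltransferases moved in opposite directions, 4 of 36 up and 4 down, with a median of -0.37. The sialyltransferase gene St8sia3 stood at 141, 164 and 187 CPM against 8.08, 4.25 and 5.75, a change of 4.72 ± 0.72 (adjusted p 0.000189), and its exons overlap the antisense gene St8sia3os. Galnt13, which starts mucin-type O-glycans, stood at 55.6, 196 and 71.7 against 3.40, 6.68 and 3.14 CPM with NeuroD1_positive_6361 the highest, a change of 4.65 ± 0.63. Fut2, the secretor fucosyltransferase, stood at 159, 182 and 207 against 32.8, 39.5 and 39.2 CPM, a change of 2.30 ± 0.39 (adjusted p 0.000563). All 3 genes had groups apart. The sialyltransferase gene St3gal4 stood at 28.9, 17 and 57.8 in the positive against 420.1, 276 and 554 CPM in the negative libraries and fell by 3.58 ± 0.46 (adjusted p 3.79e-05). St6gal1 fell by 3.56 ± 0.73 and St8sia4 fell by 3.32 ± 0.74.

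**Figure D4:**
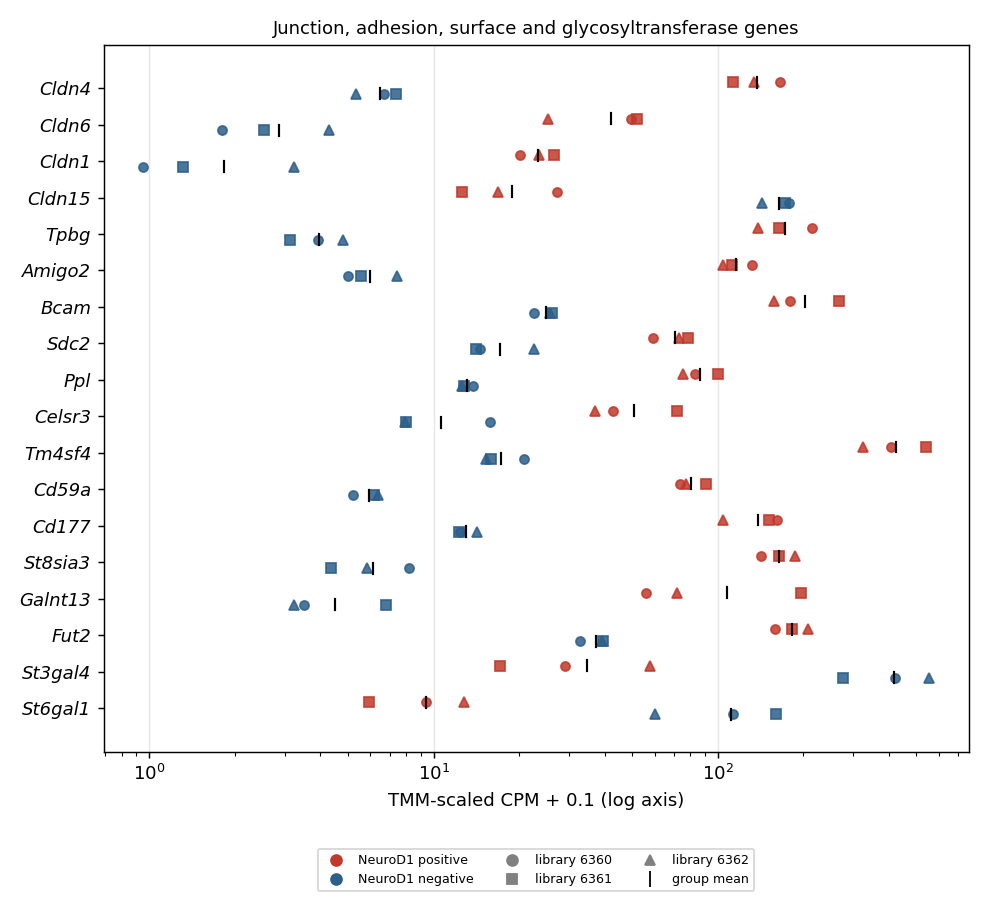
TMM-scaled CPM plus 0.1 on a log axis for 18 junction, adhesion, surface and glycosyltransferase genes, with 1 marker per library (red positive, blue negative, shape by library number) and a bar at each group mean. Cldn15, St3gal4 and St6gal1 lie lower in the positive libraries and the other 15 genes lie higher, without overlap of the groups.

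Receptors and ligands of growth factor pathways were called in small numbers, 4 of 44 up and 4 down with a median of -0.10. Gfra3, the artemin co-receptor of the GDNF family, stood at 184, 115 and 132 CPM against 5.11, 6.07 and 6.27. The change was 4.64 ± 0.41 (adjusted p 8.63e-07), without overlap. The epidermal growth factor receptor gene Egfr stood at 191, 173 and 145 against 39.4, 28.5 and 37.1 CPM, a change of 2.27 ± 0.38 (adjusted p 0.000493), while the related receptor gene Erbb2 fell by 1.89 ± 0.44 and the ligand gene Areg fell by 3.58 ± 0.61. Thus 1 receptor of the ERBB family was higher and another lower in the bulk RNA of the same positive libraries. Fgf14, an intracellular partner of sodium channels, changed by 4.22 ± 0.64, and Axl by -2.08 ± 0.64, a call lost without any 1 of the 6 NeuroD1 libraries. The GDNF receptor gene Ret, counted with the enteric neuron and glia markers, stood at 58.7, 136 and 125 against 5.53, 4.86 and 7.32 CPM, a change of 4.17 ± 0.46 (adjusted p 9.22e-06). The neuron and glia markers summed to 354 to 602 CPM in the positive and 213 to 249 in the negative libraries. Gfap, Hand2, S100b and Sox10 were among those at 0 in all positive libraries, and Hand2 and Sox10 were at 0 in all negative ones too.

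Among guidance genes 5 of 48 rose and 3 fell, with a median of 0.32, and 1 to 3 fell with 1 library left out, the fewest without NeuroD1_positive_6360 or NeuroD1_positive_6361. The ephrin receptor gene Epha7 stood at 40.04, 55 and 27.6 CPM against 2.77, 1.21 and 2.61, a change of 4.13 ± 0.70 (adjusted p 0.00053). The semaphorin receptor gene Plxnb1 stood at 102, 107 and 86.6 against 12.8, 10.3 and 14.1 CPM, a change of 2.98 ± 0.71, and the netrin receptor gene Unc5a changed by 2.76 ± 0.54. Each of these 3 receptors had positive libraries above all negative ones. The ephrin ligand gene Efnb2 fell by 2.78 ± 0.50 (adjusted p 0.000879), a second netrin receptor gene, Unc5b, fell by 2.66 ± 0.74 and Sema4d fell by 1.43 ± 0.46. The Unc5b call was lost without any 1 of the 3 positive libraries or NeuroD1_negative_6362, and the Sema4d call without NeuroD1_positive_6360 or NeuroD1_positive_6361 or NeuroD1_negative_6360 or NeuroD1_negative_6361.

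Wnt, BMP, TGF-beta and Hedgehog genes gave 6 higher and 4 lower of 60 tested, with a median of 0.27. In this list 1 to 3 rose with 1 library left out, the fewest without NeuroD1_negative_6360, while 2 to 3 fell with 1 library left out, the fewest without NeuroD1_positive_6360, NeuroD1_positive_6362 or any 1 of the 3 negative libraries. Wnt3, a niche ligand of the crypt, was low but apart, at 12.5, 13.9 and 13.4 against 0.638, 0 and 1.05 CPM, a change of 4.41 ± 1.12 that was lost without NeuroD1_negative_6360. The Wnt antagonist gene Sfrp5 stood at 40.9, 43.4 and 32.4 against 1.70, 7.89 and 4.70 CPM, and its change of 3.09 ± 0.88 was lost without any 1 of the 3 positive libraries or NeuroD1_negative_6360 or NeuroD1_negative_6362. The activin subunit gene Inhbb changed by 3.80 ± 1.11, lost without NeuroD1_positive_6361 or NeuroD1_positive_6362 or any 1 of the 3 negative libraries. Tcf7 and Tgfbr2, a T cell transcription factor and a TGF-beta receptor, fell, with changes of -3.65 ± 0.71 and -3.13 ± 0.50. The frizzled gene Fzd5 fell by 1.18 ± 0.37, lost without any 1 of the 6 NeuroD1 libraries.

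Nuclear receptors were lower in 4 of 34 and higher in 1, with a median of -0.54. Nr4a2, an activity-induced orphan receptor, stood at 150.4, 188 and 211 CPM against 28.1, 23.7 and 24.6, a change of 2.84 ± 0.36 (adjusted p 3.31e-05). Nr5a2, Hnf4g and the clock gene Nr1d1 fell, with changes of -2.74 ± 0.55, -1.91 ± 0.39 and -1.83 ± 0.37. Hnf4g, a driver of enterocyte genes, still stood at 72.5, 48.3 and 92.4 CPM in the positive libraries against 228, 183 and 390.4 in the negative ones, and exons of Nr1d1 overlap Thra on the other strand.

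Of 48 genes for calcium stores, pumps and sensors 9 rose and 3 fell, with a median of 0.39, and 5 to 7 rose with 1 library left out, the fewest without NeuroD1_negative_6360. The sodium-calcium exchanger gene Slc8a1 stood at 29.4, 47.4 and 67.8 CPM against 4.68, 5.46 and 3.14, a change of 3.44 ± 0.56 (adjusted p 0.000364). The secretory pathway calcium pump gene Atp2c2 changed by 4.17 ± 0.83, and S100a1 by 3.33 ± 0.81, lost without NeuroD1_negative_6360. The enterocyte calcium carrier gene S100g stood at 11.6, 1.34 and 6.83 in the positive against 79.6, 57.1 and 94.1 CPM in the negative libraries and fell by 3.54 ± 0.85, and the inositol trisphosphate receptor gene Itpr2 fell by 2.40 ± 0.49. S100a10 fell by 1.46 ± 0.47, lost without any 1 of the 3 positive libraries or NeuroD1_negative_6360 or NeuroD1_negative_6362.

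RGS proteins shorten the signal of G proteins. Of 17 tested 4 rose and 2 fell, with a median of -0.11, and 1 to 3 fell with 1 library left out, the fewest without NeuroD1_negative_6360. Rgs2 stood at 461, 499 and 407 CPM in the positive and 48.3, 50.4 and 62.2 in the negative libraries, a change of 3.09 ± 0.40 (adjusted p 3.72e-05), and Rgs4 at 188, 247 and 333 against 18.7, 24.3 and 19.9 CPM, a change of 3.62 ± 0.45 (adjusted p 2.73e-05). Rgs17 changed by 3.81 ± 0.83. Rgs1, known from lymphocytes, stood at 0.89, 1.79 and 3.66 against 89.6, 81.4 and 65.8 CPM and fell by 5.10 ± 0.71, and Rgs5, known from pericytes, fell by 3.21 ± 0.77, a call lost without NeuroD1_negative_6360.

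Phospholipase C, protein kinase C and diacylglycerol kinase genes were called in both directions, 4 of 36 up and 6 down, with a median of -0.48, and 2 to 3 rose with 1 library left out, the fewest without NeuroD1_positive_6361, NeuroD1_positive_6362, NeuroD1_negative_6361 or NeuroD1_negative_6362. Plcb4, a phospholipase that acts downstream of Gq, stood at 187, 125 and 171 CPM against 11.9, 27.9 and 19.3, a change of 3.05 ± 0.45 (adjusted p 0.000133). Plcb2, the phospholipase of taste and tuft cells, stood at 0.445, 2.68 and 1.22 against 40.2, 23.1 and 32.4 CPM and fell by 4.45 ± 0.76 (adjusted p 0.000573). Thus the 2 isoforms of the same enzyme differed in direction. Plcxd3 changed by 3.42 ± 0.58 and Dgkh by 2.41 ± 0.76, the latter lost without NeuroD1_positive_6361 or NeuroD1_positive_6362 or NeuroD1_negative_6361 or NeuroD1_negative_6362. Plcg2 fell by 3.20 ± 0.60 and Rasgrp1 fell by 3.07 ± 0.82, the latter lost without NeuroD1_positive_6360 or NeuroD1_positive_6362 or NeuroD1_negative_6360. Tuft cell markers summed to 27.1 to 72.9 CPM in the positive and 216 to 255 in the negative libraries. Gfi1b, Gng13 and Il25 were at 0 in all positive libraries, and Il25 was at 0 in all negative ones too. Plcb2 is itself in this marker list, so its counts are part of these sums. The part of tuft cells in the fall of Plcb2 was not tested.

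Regulators of the MAP kinase and Ras pathways rose in 11 of 51 and fell in none, with a median of 0.64, and 6 to 8 rose with 1 library left out, the fewest without NeuroD1_negative_6360 or NeuroD1_negative_6361. The log2 fold changes of the 11 ran from 1.18 to 3.44. The atypical kinase gene Mapk4 stood at 32.9, 41.6 and 49.5 CPM against 5.74, 1.82 and 3.14, a change of 3.44 ± 0.65 (adjusted p 0.00128). The JNK scaffold gene Mapk8ip2 stood at 76.5, 150.3 and 66.1 against 10.2, 16.4 and 14.6 CPM, a change of 2.84 ± 0.51 (adjusted p 0.000854). Spred3, a Ras inhibitor, changed by 2.78 ± 0.64. None of the 3 genes had overlapping groups.

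Of 32 glycolysis and gluconeogenesis genes 2 rose and 5 fell, with a median of -0.54. In this list 1 to 2 rose with 1 library left out, the fewest without NeuroD1_positive_6360 or any 1 of the 3 negative libraries, while 3 to 5 fell with 1 library left out, the fewest without NeuroD1_positive_6360, NeuroD1_positive_6361, NeuroD1_negative_6360 or NeuroD1_negative_6362. Hk2, a hexokinase, stood at 218, 175 and 279.6 CPM in the positive libraries and 39.4, 38.3 and 37.6 in the negative ones. The negative libraries were nearly equal and the change was 2.54 ± 0.40 (adjusted p 0.000296). Khk, which phosphorylates fructose, stood at 27.1, 33.1 and 25.8 in the positive against 199, 119 and 233 CPM in the negative libraries, a change of -2.68 ± 0.61 (adjusted p 0.00586). The phosphofructokinase gene Pfkp fell by 1.89 ± 0.39.

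In the citric acid cycle list 6 of 30 genes fell and 2 rose, with a median of -0.82. In this list 0 to 6 fell with 1 library left out, none without NeuroD1_negative_6362, while 0 to 2 rose with 1 library left out, none without NeuroD1_negative_6360. The 2 that rose were kinases that switch off pyruvate dehydrogenase. Pdk3 stood at 65.8, 56.4 and 62.4 CPM against 6.17, 16.4 and 14.1, a change of 2.36 ± 0.58, lost without NeuroD1_negative_6360, and Pdk4 at 31.6, 51.5 and 97.5 against 12.1, 12.1 and 19.3, a change of 2.06 ± 0.50, lost without NeuroD1_positive_6362 or NeuroD1_negative_6360. Mdh2, Sdhb and Idh1 fell, with changes of -1.39 ± 0.37, -1.44 ± 0.40 and -1.54 ± 0.42. The Mdh2 call was lost without NeuroD1_positive_6361 or NeuroD1_positive_6362 or NeuroD1_negative_6362, the Sdhb call without NeuroD1_positive_6361 or NeuroD1_positive_6362 or NeuroD1_negative_6360 or NeuroD1_negative_6362 and the Idh1 call without NeuroD1_positive_6360 or NeuroD1_positive_6361 or NeuroD1_negative_6362. Among unlisted genes the mitochondrially encoded mt-Co1 changed by -1.56 ± 0.39, mt-Co2 by -1.35 ± 0.39 and mt-Cytb by -1.24 ± 0.38, with calls lost without NeuroD1_positive_6360 or NeuroD1_negative_6362, without any 1 of the 3 positive libraries or NeuroD1_negative_6360 or NeuroD1_negative_6362 and without any 1 of the 6 NeuroD1 libraries respectively. The share of all mitochondrially encoded genes other than the ribosomal ones was taken of the counts without mt-Rnr1 and mt-Rnr2. It was 3.61% to 4.14% in the positive and 9.10% to 12.1% in the negative libraries.

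Lipid genes gave few calls. In fatty acid oxidation 1 of 30 rose and 4 fell, with a median of -0.75, and 1 to 3 fell with 1 library left out, the fewest without NeuroD1_negative_6362. The acyl-CoA synthetase genes Acsl1 and Acsl5 moved in opposite directions. Acsl1 stood at 232, 263 and 361 against 67, 103 and 93 CPM, a change of 1.71 ± 0.44, lost without NeuroD1_positive_6362 or NeuroD1_negative_6360. Acsl5, the form known from enterocytes, stood at 135, 94.4 and 80.5 in the positive against 584, 324 and 827 CPM in the negative libraries and fell by 2.49 ± 0.36 (adjusted p 0.000115). Acadm and Acaa2 fell, with changes of -2.08 ± 0.56 and -1.40 ± 0.39, calls lost without NeuroD1_positive_6361 or NeuroD1_negative_6362 and without NeuroD1_positive_6360 or NeuroD1_positive_6362 or NeuroD1_negative_6361 or NeuroD1_negative_6362. Elovl2, which elongates polyunsaturated fatty acids, was the gene called higher among 20 of fatty acid synthesis, where edgeR called 0 and DESeq2 2 lower. It stood at 27.1, 14.8 and 34.4 against 1.28, 1.21 and 2.09 CPM, a change of 4.05 ± 0.74 (adjusted p 0.000946). Of 26 cholesterol synthesis genes 2 rose and none fell in edgeR, and 0 to 1 rose with 1 library left out, none without NeuroD1_positive_6360, NeuroD1_positive_6362, NeuroD1_negative_6361 or NeuroD1_negative_6362. Sqle, which encodes squalene epoxidase, changed by 1.00 ± 0.32, a call lost without any 1 of the 6 NeuroD1 libraries.

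Arginine and glutamine enzymes gave 3 higher and 4 lower of 24, with a median of -0.64, and the 2 arginases went in opposite directions. The cytosolic arginase gene Arg1 stood at 41.8, 44.3 and 38.3 CPM in the positive and 2.98, 3.04 and 4.18 in the negative libraries. All 3 positive libraries were within a narrow range, and the change was 3.61 ± 0.61 (adjusted p 0.000519). The mitochondrial arginase gene Arg2 stood at 21.8, 43.4 and 10.7 against 184, 145 and 205 CPM and fell by 2.83 ± 0.50 (adjusted p 0.000826). Glutamine synthetase (Glul) stood at 301, 359.8 and 261 against 91.9, 101 and 92 CPM, a change of 1.70 ± 0.34 (adjusted p 0.00213), and the argininosuccinate synthase gene Ass1 changed by 2.19 ± 0.54, lost without NeuroD1_negative_6362. Citrulline synthesis by ornithine transcarbamylase (Otc) and phosphocreatine synthesis by mitochondrial creatine kinase (Ckmt1) are known from enterocytes, and these genes fell, with changes of -2.29 ± 0.51 and -2.56 ± 0.31. No gene of serine, one-carbon or polyamine metabolism passed in either direction among 24 tested in edgeR, with a median of -0.25, and 2 in each direction had an unadjusted p under 0.05. DESeq2 called 2 of them lower and limma voom 1.

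Nucleotide genes gave 3 higher and 3 lower of 29, with a median of -0.16, and 1 to 3 rose with 1 library left out, the fewest without NeuroD1_positive_6361, NeuroD1_negative_6360 or NeuroD1_negative_6362. The purine-degrading xanthine dehydrogenase gene Xdh stood at 9.34, 19.2 and 18.3 in the positive against 149.6, 140.3 and 351 CPM in the negative libraries and fell by 3.76 ± 0.49 (adjusted p 3.88e-05). The guanine deaminase gene Gda stood at 8.90, 32.7 and 42.7 against 252, 104 and 703 CPM and fell by 3.64 ± 0.66 (adjusted p 0.000883), and the salvage gene Aprt fell by 1.89 ± 0.48, lost without NeuroD1_positive_6361 or NeuroD1_negative_6362. NeuroD1_negative_6362 was the highest for all 3. Nt5e, the surface enzyme CD73 that makes adenosine, changed by 2.12 ± 0.53, Upb1 by 3.43 ± 0.81 and Upp1 by 1.84 ± 0.54, calls lost without NeuroD1_positive_6361 or NeuroD1_negative_6362, without NeuroD1_negative_6360 and without NeuroD1_positive_6360 or NeuroD1_positive_6361 or any 1 of the 3 negative libraries.

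Of 36 glutathione and antioxidant genes tested 5 rose and 7 fell, with a median of -0.75, and 3 to 6 fell with 1 library left out, the fewest without NeuroD1_positive_6362. In this list 3 to 4 rose with 1 library left out, the fewest without NeuroD1_positive_6360, NeuroD1_positive_6362, NeuroD1_negative_6360 or NeuroD1_negative_6361. Gpx3, a secreted glutathione peroxidase, stood at 1165, 1613 and 1052 CPM in the positive and 59.8, 76.5 and 82.6 in the negative libraries. The groups lay far apart, with a change of 4.13 ± 0.40 (adjusted p 2.01e-06). Selenop, the selenium carrier, stood at 1506, 2004 and 1581 against 245, 296 and 558 CPM, a change of 2.21 ± 0.33 (adjusted p 0.000146), and its exons overlap Ccdc152 on the other strand. Gstt1 stood at 416, 275 and 163 against 28.3, 20.04 and 37.1 CPM, a change of 3.32 ± 0.48 (adjusted p 0.000109). The transferase genes Gstm3, Gsta1 and Mgst2 fell, with changes of -3.27 ± 0.46, -2.63 ± 0.46 and -2.04 ± 0.54, the last lost without NeuroD1_positive_6361 or NeuroD1_positive_6362 or NeuroD1_negative_6362. Gstm3 and Gsta1 have near-identical copies, which makes their single values uncertain.

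Vitamin A genes were called in 10 of 24, 4 higher and 6 lower, with a median of -0.96. The retinol carrier gene Rbp4 stood at 356, 438 and 458 CPM in the positive libraries against 13.2, 15.8 and 15.7, a change of 4.82 ± 0.41 (adjusted p 6.57e-07). The 2 carotene-cleaving enzymes moved apart. Bco1, which cuts beta-carotene at its centre, stood at 29.8, 19.7 and 30.2 against 1.06, 0.607 and 3.66 CPM, a change of 3.93 ± 0.73 (adjusted p 0.00118). Bco2, which cuts off centre, stood at 3.11, 0.895 and 2.19 against 61.5, 51 and 35 CPM and fell by 4.54 ± 0.75 (adjusted p 0.000411). Isx, the homeobox repressor of Bco1, stood at 8.90, 14.3 and 7.31 against 62.3, 48 and 71.6 CPM and fell by 2.58 ± 0.49, and the retinaldehyde dehydrogenase gene Aldh1a1 fell by 3.08 ± 0.40. Rdh12 changed by 3.91 ± 0.95, with NeuroD1_positive_6360 close to the negative ones (2.67, 33.1 and 33.4 against 1.70, 0.607 and 2.09 CPM).

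Of 28 zinc and copper genes 1 rose and 4 fell, with a median of -0.44, and 1 to 4 fell with 1 library left out, the fewest without NeuroD1_positive_6362. The importer gene Slc39a8 stood at 76.1, 60.4 and 57.5 against 14.3, 14 and 9.93 CPM, a change of 2.34 ± 0.47 (adjusted p 0.00233). Slc30a10, Slc39a5 and the metallothionein gene Mt2 fell, with changes of -3.27 ± 0.88, -2.57 ± 0.64 and -2.02 ± 0.48. The Slc30a10 call was lost without NeuroD1_positive_6361 or NeuroD1_positive_6362 or NeuroD1_negative_6362, and the Slc39a5 call without NeuroD1_positive_6362.

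Beside these metabolic genes, the summed CPM of 22 enterocyte markers was 7146 to 9142 in the positive and 11713 to 37046 in the negative libraries, with 16 of 22 tested lower. Lct and Mep1b, brush border hydrolases, fell, with changes of -4.85 ± 0.60 and -4.10 ± 0.45. Enterocyte markers were highest in NeuroD1_negative_6362. The same library was the highest of the 3 negative ones for 21 of the 24 metabolic genes taken by the naming rule that fell, Khk, Xdh, Gda, Gstm3 and Aldh1a1 among them, and the exceptions were Bco2, Mt2 and Acaa2. The part of the enterocyte markers in the falls was not tested.

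**Figure D5:**
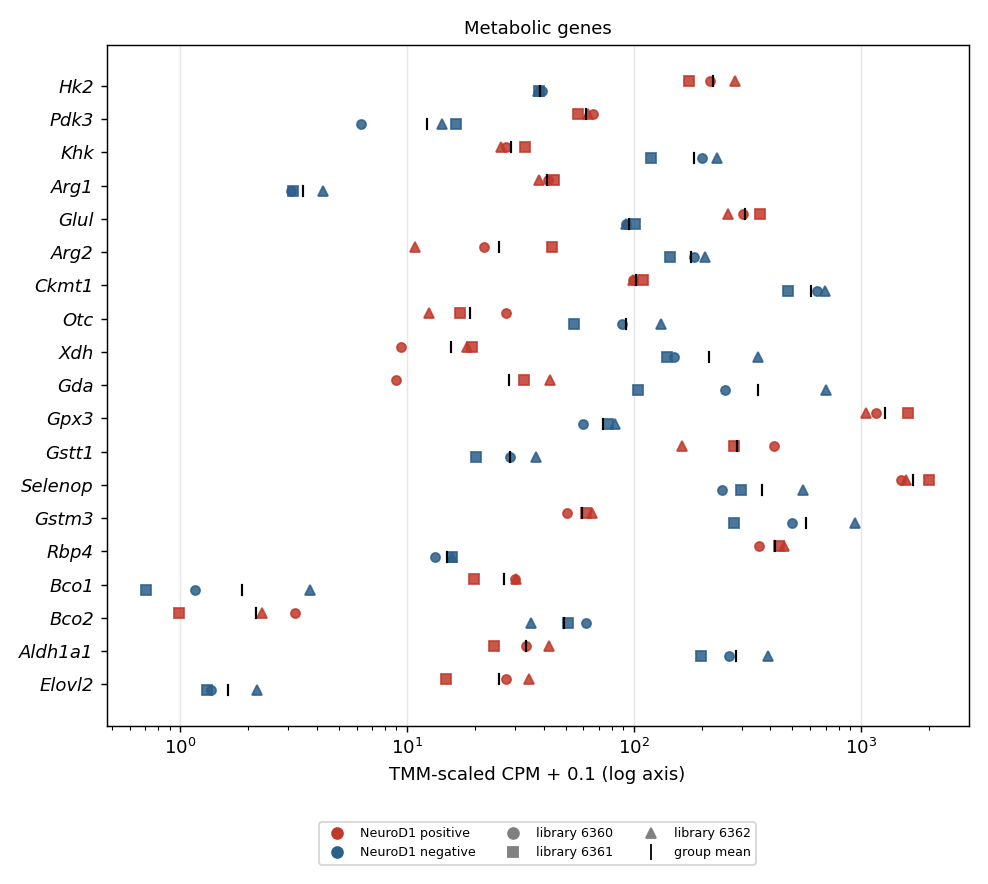
TMM-scaled CPM plus 0.1 on a log axis for 19 metabolic genes, with 1 marker per library (red positive, blue negative, shape by library number) and a bar at each group mean. Hk2, Pdk3, Arg1, Glul, Gpx3, Gstt1, Selenop, Rbp4, Bco1 and Elovl2 lie higher in the positive libraries and the other 9 genes lie lower, without overlap of the groups.

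Splicing regulators rose in 4 of 32 and fell in none, with a median of 0.61. Celf3, a neural splicing factor, stood at 265, 212 and 159 CPM against 17.9, 14.6 and 18.3, a change of 3.64 ± 0.41 (adjusted p 9.94e-06), and the RNA-binding protein gene Msi1 changed by 2.99 ± 0.61. Rbfox3, the factor known as NeuN, had 94 counts over the positive and 1 over the negative libraries, a ratio of 90.4 with a 95% counting interval of 15.8 to 3609.7. Neuronal cytoskeleton genes rose in 9 of 42, with a median of 0.86, but in 1 to 3 with 1 library left out, the fewest without NeuroD1_negative_6360. The microtubule-associated gene Map1b stood at 1319.5, 1350.0 and 1370.2 against 133, 164 and 146 CPM, nearly equal within each group, with a change of 3.19 ± 0.35 (adjusted p 8.52e-06). The intermediate filament gene Ina changed by 2.70 ± 0.77 and Marcksl1 by 2.1 ± 0.63, calls lost without NeuroD1_positive_6361 or NeuroD1_positive_6362 or any 1 of the 3 negative libraries and without any 1 of the 6 NeuroD1 libraries.

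Imprinted genes rose in 6 of 20 and fell in none, with a median of 0.78. Cdkn1c, which encodes the cell cycle inhibitor p57, stood at 165, 127 and 163 CPM against 2.55, 1.21 and 6.79, a change of 5.44 ± 0.70 (adjusted p 3.79e-05). Nnat stood at 24.5, 471 and 36.3 CPM against 3.83, 5.46 and 5.23. NeuroD1_positive_6361 alone was high, and without it the change fell from 5.21 ± 0.96 to 2.66 and lost its call. Meg3, a long non-coding RNA, stood at 4.89, 23.3 and 15.8 against 1.06, 0 and 1.57 CPM, and its change of 3.94 ± 0.98 was likewise lost without NeuroD1_positive_6361. Nnat and Meg3 share exon positions with other genes, so their counts may hold reads of those.

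Lysosome and autophagy genes rose in 3 of 38 and fell in none in edgeR, with a median of 0.48, and 1 to 3 rose with 1 library left out, the fewest without NeuroD1_positive_6360, NeuroD1_positive_6362 or any 1 of the 3 negative libraries. Ctsl, the protease cathepsin L, stood at 129, 94.9 and 70.2 CPM against 27.2, 19.4 and 21.9, a change of 2.09 ± 0.43 (adjusted p 0.00247), while Wipi1, an autophagy gene, changed by 1.54 ± 0.46, a call lost without NeuroD1_positive_6360 or NeuroD1_positive_6362 or any 1 of the 3 negative libraries. Of 35 interferon response genes 4 fell and none rose in edgeR, with a median of -0.85, and 1 to 3 fell with 1 library left out, the fewest without NeuroD1_positive_6361, NeuroD1_positive_6362 or NeuroD1_negative_6360. At an unadjusted p under 0.05, 3 were higher, and DESeq2 called 2 of the list higher and limma voom 0. Irf8 fell by 1.63 ± 0.53, a call lost without any 1 of the 6 NeuroD1 libraries. Gbp2 had 2 counts over the positive libraries, and its ratio of negative to positive was 49.9 (95% counting interval 13.4 to 418), a call lost without NeuroD1_positive_6361 or NeuroD1_positive_6362. Of 32 apoptosis regulators Casp1 fell by 1.61 ± 0.47, lost without NeuroD1_positive_6360 or NeuroD1_positive_6362 or any 1 of the 3 negative libraries, and 31 did not pass.

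Among unlisted genes that fell, the 12 with the largest change were mostly at a few counts in the positive libraries. The plasma cell and lymphocyte factor gene Irf4 stood at 0.445, 1.34 and 3.17 CPM in the positive and 116, 211 and 58.5 in the negative libraries, a change of -6.11 ± 0.95 (adjusted p 0.000232). Ncf1, a subunit of the phagocyte oxidase, stood at 0.445, 0 and 1.46 against 65.9, 83.2 and 50.2 CPM, a change of -6.40 ± 0.82, and Fli1, a blood and endothelial factor gene, fell by 6.13 ± 0.81. The pyrimidine nucleoside carrier gene Slc28a1 stood at 0.445, 0 and 0.731 against 43.2, 8.50 and 47 CPM, a change of -6.12 ± 1.13, and the T cell receptor chain gene Cd247 fell by 5.84 ± 1.11. For 7 genes the positive libraries held 2 or 3 counts in all. The ratio of negative to positive CPM was 85.2 for the T cell costimulator gene Cd28 (95% counting interval 28.8 to 416) and 76.6 for the lymphocyte adaptor gene Sash3 (25.9 to 374). It was 133 for Gapt (36.5 to 1104), 88.9 for Parvg (24.2 to 739.7), 70.3 for Apobr (23.7 to 344) and 73.8 for Lax1 (20.1 to 615). For Ugt1a2, a glucuronosyltransferase that shares exons with the rest of its cluster, the ratio was 140.3 (47.7 to 683). These intervals cover counting error only.

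By difference in level, the falls were led by mt-Co1 and mt-Cytb, given above with mt-Co2. Lypd8, which keeps bacteria off the mucosa, stood at 2107, 3244 and 1753 CPM in the positive and 6392, 5732 and 6419 in the negative libraries, a change of -1.38 ± 0.32 (adjusted p 0.00591). The antimicrobial lectin gene Reg3b stood at 81, 218 and 116 against 569, 1435 and 2519 CPM and fell by 3.44 ± 0.74 (adjusted p 0.0036), so that this member of the Reg family went the other way from Reg4. The brush border glucosidase gene Mgam stood at 287, 207 and 247 against 1554, 873 and 3144 CPM and fell by 2.91 ± 0.42. Ferritin heavy chain (Fth1) fell by 1.32 ± 0.31, and Dmbt1 fell by 1.40 ± 0.37, lost without NeuroD1_positive_6362. The immunoglobulin transporter gene Pigr and Actb fell, with changes of -1.0 ± 0.31 and -1.0 ± 0.31, calls lost without NeuroD1_positive_6361 or NeuroD1_positive_6362 or NeuroD1_negative_6360 or NeuroD1_negative_6362 and without any 1 of the 6 NeuroD1 libraries. Reg3b has close relatives in its cluster, so its single value is uncertain.

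Markers of other cells were called mostly lower in 3 of the 7 marker lists, those of immune cells, enterocytes, and goblet and Paneth cells. Of 18 goblet and Paneth markers 12 fell, including Zg16 (-3.82 ± 0.64) and the defensin gene Defa17 (-4.10 ± 0.89), while Agr2 and Tff3 rose by 1.28 ± 0.37 and 1.18 ± 0.36. Agr2 stood at 755, 904 and 611 against 315, 387 and 234 CPM, and the 2 calls were lost without any 1 of the 3 positive libraries or NeuroD1_negative_6360 or NeuroD1_negative_6362. Tuft markers fell in 6 of 14, with Alox5 at -4.74 ± 1.02. Immune markers fell in 23 of 23, with Cd79a at -5.55 ± 0.73 and Nkg7 at -5.46 ± 1.01. Stromal and endothelial markers fell in 5 of 17, and 2 to 6 fell with 1 library left out, the fewest without NeuroD1_positive_6360 or NeuroD1_negative_6360. Acta2 changed by -2.82 ± 0.83, lost without NeuroD1_positive_6360 or NeuroD1_positive_6361 or NeuroD1_negative_6360, and Myh11 by -2.75 ± 0.59, while Vim stood at 259, 124 and 134 against 67.2, 61.3 and 49.1 CPM and rose by 1.54 ± 0.41, lost without NeuroD1_positive_6360 or any 1 of the 3 negative libraries. Of 18 stem and proliferation genes the positive cells had more Msi1 and less Mki67, which fell by 1.26 ± 0.36, lost without NeuroD1_positive_6361 or NeuroD1_positive_6362 or NeuroD1_negative_6360.

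The positive libraries were also compared among themselves. Of the 341 genes called higher with a mean of at least 100 CPM in the positive cells, the highest positive library stood at a median of 1.44 times the lowest. It was more than 2 times the lowest in 41 genes and more than 3 times in 4, a description chosen after the values were seen. Nnat ran from 24.5 to 471 CPM, Spock2, a testican proteoglycan, from 173 to 641, Galnt13 from 55.6 to 196 and Scgn, the calcium sensor secretagogin, from 79.2 to 251. NeuroD1_positive_6361 was the highest for the first 3 of these and NeuroD1_positive_6362 for Scgn.

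The same contrast in GluVenus mice, with its own negative libraries, was set beside these results by the test of the difference between the strains. The log2 fold change, positive against negative, was higher in the Neurod1-cre-eYFP strain for 15 genes, 0.103% of the genes tested, and lower for 4, 0.0273%, in edgeR, and 1560 genes had an unadjusted p under 0.05. With any 1 of the 11 libraries left out the 2 counts ran from 5 to 21 and from 0 to 28, and DESeq2 gave 57 and 116. A lower value can be a deeper fall, as for Cd28 and Sash3, which fell in the Neurod1-cre-eYFP strain and changed by 0.54 ± 0.67 and -0.12 ± 0.56 in GluVenus mice without passing there. Of the genes tested, 3.8% were called higher and 2.65% lower in GluVenus positive cells. Of the 100 genes taken by the naming rule that rose in NeuroD1 positive cells, 57 were also called higher in GluVenus cells and 2, Afp and Arg1, lower, and of the 90 that fell, 17 were called lower. Among the 57, Adgrg4 changed by 4.92 ± 0.50, Pzp by 5.17 ± 0.51, Rbp4 by 3.61 ± 0.46, Gfra3 by 3.25 ± 0.44, Galnt13 by 5.08 ± 0.76 and Map1b by 2.96 ± 0.41, with the adjusted p of these 6 in GluVenus cells at or below 0.000499. Reg4 did not pass there, at 87.6, 103 and 31.1 CPM in the 3 Glu positive against 77 and 73.3 in the 2 Glu negative libraries. Its change in GluVenus mice was -0.03 ± 0.41, and the difference between strains was 5.72 ± 0.57 (adjusted p 4.78e-05). Tpbg differed likewise, with 1.03, 1.19 and 0.165 against 1.60 and 2.35 CPM in GluVenus mice and a difference between strains of 6.99 ± 0.85 (adjusted p 0.000638). Values that are not whole were found for 848 genes in the NeuroD1 and for 3 in the GluVenus libraries, so that strain, reporter and the making of the counts cannot be told apart.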

How the data were processed

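Each RNA-seq library started from 2 ng of total RNA, which an amplifying kit turned into cDNA, per the labels' protocols. The build GRCm38, CASAVA, Cufflinks 2.2.1 and TopHat2 2.1.0 stand in the submitters' processing notes. The counting tool, annotation and strand setting were not given in the sources used here. What the authors deposited were expected counts per gene and library, not whole for 848 of 38283 genes, and these were rounded. Symbols were in hand for 36341 genes and GENCODE vM21 coordinates for 36425.

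mt-Rnr1 and mt-Rnr2 were left out, filterByExpr kept 14629 genes, and edgeR 4.0.16 (R 4.3.3) was fitted with TMM scaling and 4 group means over all 11 libraries, with quasi-likelihood tests and Benjamini-Hochberg adjustment over all genes. The value after ± is the SE, the log2 fold change over the square root of F. CPM are counts over the TMM library size. Library totals ranged from 2279595 to 5722381. Counting intervals are exact Clopper-Pearson at 95%. Alternatives were other scalings, filters, DESeq2 1.42.0, limma voom 3.58.1, the 6 libraries alone, a replicate block and leaving out each library.

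The members, the 41 lists (31 of themes, 7 of cell markers and 3 of known endocrine genes, with 1441 genes) and the rules were chosen with earlier results of these data known. Named genes were the 4 markers, up to 3 called members per theme list and direction with at least 10 CPM in the higher group by size of change, up to 2 per marker list, and unlisted genes with at least 20 CPM and groups that do not overlap, 12 each way by change and 10 by level. Clone names, immunoglobulin and T cell receptor segments, defensins and pseudogenes were left out of the unlisted genes. Some genes that the rule names are not reported here. No 2 libraries of a group agreed within sampling noise. The chi-square over its degrees of freedom was 12.4 to 26.7 within the NeuroD1 groups and 62.5 to 103.8 within the GluVenus groups.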

Additional observations from a re-analysis of the deposited data

Results flagged for a closer look

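Of the named genes, 8 had a difference between positive and negative cells that itself differed between the strains in edgeR's interaction test. The log2 differences, NeuroD1 strain minus GluVenus, were as follows. Reg4 stood at 5.72 ± 0.57 (adjusted p 4.78e-05), Tpbg at 6.99 ± 0.85 (0.000638), Arg1 at 6.41 ± 0.89 (0.0025) and Afp at 12.19 ± 1.11 (2.01e-05). These 4 held with any 1 of the 11 libraries left out. In GluVenus mice the direction was opposite for Arg1, which stood at 1.03, 2.38 and 1.15 CPM in the Glu positive and 9.08 and 11.9 in the Glu negative libraries, a change of -2.81 ± 0.65 (adjusted p 0.0146). Afp had 2 counts in all over the Glu positive and 91 over the Glu negative libraries, so its size rests on few counts. Trpc7 differed by 9.98 ± 1.67 (adjusted p 0.0168), with 0 and 7 counts in the Glu positive and negative libraries, and was lost without NeuroD1_positive_6360, NeuroD1_negative_6360, NeuroD1_negative_6362 or Glu_negative_4665.

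Gpx3 rose in both strains and differed by 2.71 ± 0.53 (adjusted p 0.0493), a call lost in 9 of the 11 fits with a library left out and kept without Glu_positive_5254 or without Glu_positive_4665. Cd28 differed by -7.10 ± 1.18 (adjusted p 0.0123) and Sash3 by -5.75 ± 0.98 (adjusted p 0.015), with 794 and 634 counts in the Glu positive libraries against 3 each in the NeuroD1 positive ones. The Cd28 call was lost without NeuroD1_positive_6360 or either Glu negative library. The Sash3 call was lost without NeuroD1_positive_6360, NeuroD1_positive_6362, NeuroD1_negative_6360 or either Glu negative library. Cd28 in the 3 Glu positive libraries stood at 143, 25.7 and 51.8 CPM, against 46.5 and 54.5 in the Glu negative ones.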

How the results depend on the processing

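All 190 named genes kept their direction under every alternative that gave a value, 4170 values in all, and 257 of these lost the call. These genes were picked among called genes, mostly by size of change, so a reversal was unlikely from the outset. Of them, 134 were called with any 1 of the 6 NeuroD1 libraries left out. The 903 genes higher became 1370 with the 6 NeuroD1 libraries alone, where 11444 genes were tested and 1331 were lower. With 1 library left out they ranged from 502 to 1221, and the 1132 lower genes from 724 to 1518. Scaling by library totals moved the median of all genes to -0.146 and gave 740 higher and 1258 lower. Positive and negative libraries of the same number deviated from their group means with correlations of 0.0456, 0.013 and 0.00883, so the numbers were not taken as pairs, and not every library correlated best with its own number. A replicate block on the library number gave 894 higher and 1089 lower over all libraries, and 1320 and 1339 in the 6 libraries, a fit added after the data were seen. The 15 genes with a higher log2 fold change in the Neurod1-cre-eYFP strain than in GluVenus mice became 82 with no filter, 57 in DESeq2 and 7 in limma voom, and ran from 5 to 21 with 1 library left out. The 4 genes with a lower one became 2 with RLE size factors, 247 with no filter, 116 in DESeq2, 0 in limma voom and 12 with the replicate block, and ran from 0 to 28. The causes were not tested. Genes of a few counts in a group are limited by depth, and their fitted changes are no bounds.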
